A study of Rattus norvegicus with 15 samples.

Results

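The levels of 5 liver microRNAs (miRNAs), miR-345-5p, miR-350, miR-374, miR-361 and miR-425, are described across 15 arrays and called the 5 members below. They are 5 of the 350 rat miRNAs on the array and 5 of the 134 that could be tested. They were chosen by name as miRNAs that were higher 12 or 24 h after partial hepatectomy (PHx, surgical removal of part of the liver) in these same arrays and that lie outside the miR-17 families. Their rise at 12 and 24 h is therefore the ground of the choice, and it is described here without a test.

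The arrays measured miRNA in rat liver with a single Cy3 dye, and each was loaded with RNA pooled from 4 animals. Rats had been kept on a chronic ethanol diet (EtOH) or, as pair-fed controls, on a carbohydrate diet (CHO), and all of them underwent PHx. Before PHx there were 3 EtOH pools and 4 CHO pools, and at 1, 6, 12 and 24 h after PHx there was 1 pool of each diet. The labels name no strain, sex or age. Per the animal identifiers in the labels, 7 of the 8 pools were sampled both before and after surgery, so a tissue sample before PHx is the animals' own baseline. The 24 h EtOH pool has no such baseline among the arrays analysed here. Pools rather than animals were measured, so no p-value below measures the spread between animals. The main linear model takes its error from the pools before PHx and from how the diet difference varied between times after it. Except where a block of pools is named, arrays count as independent, although 7 of the 8 pools were sampled before and after PHx.

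A miRNA is a short RNA that guides the silencing complex to messenger RNAs, mainly by pairing of its seed, the bases near its 5′ end, with sites in the target. After PHx the cells of the remaining liver leave quiescence and copy their DNA, and in the rat hepatocytes reach the peak of DNA synthesis about a day after surgery. The miR-17 clusters, set aside here, are the classic growth-associated miRNAs of dividing cells. None of the 5 members belongs to them by sequence, which is why their seeds are shown first.

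All 5 members matched a mature rat miRNA by name in the RefSeq annotation of the GRCr8 assembly. The array design names miR-374, miR-361 and miR-425 without an arm, and the 5p arm was taken for them, which the array files do not state. Capitals mark the seed, bases 2 to 8.
miR-345-5p: uGCUGACCccuaguccagugc
miR-350: uUCACAAAgcccauacacuuucac
miR-374: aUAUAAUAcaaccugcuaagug
miR-361: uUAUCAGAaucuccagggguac
miR-425: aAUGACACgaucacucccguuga
The 5 seeds differ from each other, and among the 724 mature entries of the table, under 693 names, 0 others carry the seed of any member. A common seed is thus not something the members share. In GRCr8 miR-345-5p lies at chr6:133518418-133518438 on the plus strand, within the lncRNA gene LOC134479257. The miR-350 sequence lies at chr13:91244549-91244572 on the minus strand, within the span of Cep170, which encodes a centrosomal protein. Both miR-374, at chrX:72657532-72657553, and miR-361, at chrX:82438506-82438527, lie on the minus strand of the X chromosome. miR-374 falls within the spans of Jpx and Ftx, lncRNA genes known from X inactivation, and miR-361 within that of Chm, which encodes a Rab escort protein. The miR-425 sequence lies at chr8:118143094-118143116 on the plus strand, within the span of Dalrd3. Whether these spans are exon or intron at the miRNA was not analysed here.

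**Figure D1:**
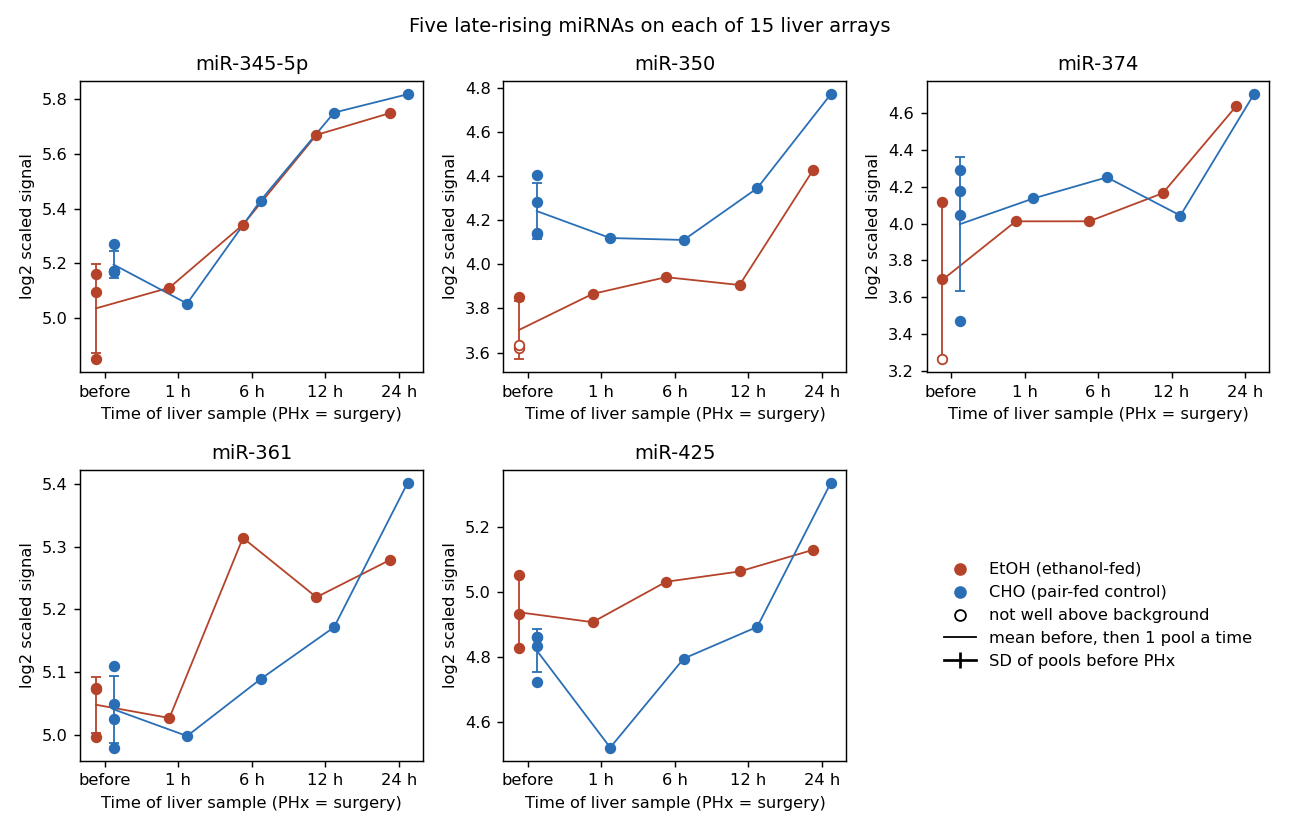
Log2 scaled signal (vertical axes, each with its own range) of the 5 members before PHx and 1, 6, 12 and 24 h after it. Each point is 1 pool of 4 animals, red for EtOH and blue for CHO. Bars show the mean ± SD of the 3 EtOH and 4 CHO pools before PHx, lines join the means, and open points were not well above background. The 24 h points of both diets lie above all 7 points before PHx in every panel.

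Each member's level is given as scaled signal, a linear intensity corrected for local background and brought to a common 75th percentile on every array, taken over the probes detected throughout. Probes differ in brightness for technical reasons, so values are set against each other within a miRNA only. Log2 values and log2 differences of the same signal are used for changes. A spot signal counted as detected where the scanner software called it well above background.

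miR-345-5p stood above its levels before PHx from 6 h on. Before PHx its scaled signal was 35.8, 28.9 and 34.1 in the EtOH pools and 35.9, 36.1, 38.6 and 36.1 in the CHO pools. At 1 h it was 34.6 in EtOH and 33.2 in CHO, at 6 h 40.5 and 43.1, at 12 h 50.9 and 53.8, and at 24 h 53.7 and 56.4. The 6, 12 and 24 h arrays of both diets were above all 7 arrays before PHx, and the 1 h arrays lay inside their range. It was detected on 15 of 15 arrays.

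miR-350 was dim, and its levels divided by diet at every time. Before PHx it read 12.3, 14.5 and 12.4 in EtOH and 17.7, 21.2, 17.6 and 19.5 in CHO. After PHx the EtOH pools read 14.6, 15.4, 14.99 and 21.5 at 1, 6, 12 and 24 h, and the CHO pools 17.4, 17.3, 20.3 and 27.3. Only the 24 h arrays were above all arrays before PHx, and within each diet the 24 h pool was the highest. It was detected on 13 of 15 arrays, and 2 of the 3 EtOH pools before PHx were not well above background.

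miR-374 had the widest spread between pools before PHx of the 5 members. Before PHx the EtOH pools read 8.82, 17.4 and 13.0, the first of them below the floor of 9.61 at which signals were set before taking log2, and the CHO pools 16.5, 18.1, 11.1 and 19.6. After PHx it read 16.1, 16.1, 18.0 and 24.9 in EtOH and 17.6, 19.1, 16.5 and 26.1 in CHO at 1, 6, 12 and 24 h. The 1, 6 and 12 h arrays all fell within the range before PHx, and both 24 h arrays were above it. It was detected on 14 of 15 arrays.

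miR-361 varied little between the pools before PHx. These read 33.7, 33.7 and 31.9 in EtOH and 32.6, 33.1, 31.6 and 34.5 in CHO. After PHx it read 32.6, 39.8, 37.3 and 38.8 in EtOH and 32.0, 34.04, 36.05 and 42.3 in CHO at 1, 6, 12 and 24 h. The 12 and 24 h arrays of both diets and the 6 h EtOH array were above all 7 arrays before PHx.

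miR-425 read higher in EtOH than in CHO at 1, 6 and 12 h and lower at 24 h. Before PHx it read 28.4, 33.2 and 30.5 in EtOH and 28.5, 26.4, 29.1 and 29.1 in CHO. After PHx it read 30.0, 32.7, 33.4 and 35.0 in EtOH and 23.0, 27.8, 29.7 and 40.4 in CHO at 1, 6, 12 and 24 h. The lowest of all 15 values was the 1 h CHO pool and the highest the 24 h CHO pool, and the 24 h arrays of both diets and the 12 h EtOH array were above all 7 before PHx. Both miR-361 and miR-425 were detected on 15 of 15 arrays.

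Both 24 h arrays were above all 7 arrays before PHx for 5 of 5 members, as for 13.4% of tested miRNAs. At 12 h both arrays were so for 2 of 5, miR-345-5p and miR-361, beside 8.21% of tested miRNAs. These separations follow from the choice of members, and nothing is read from them. In the order of the 10 groups of diet and time, the 24 h CHO pool was the highest for each of the 5 members. The 24 h values chose the members, and the share of tested miRNAs with that pool highest was not counted. Nothing is read from this order either. Neighbours in that order were mostly close. The gap exceeded the pooled SD of the pools before PHx for 2 of 9 neighbouring pairs for miR-345-5p, and for 3 of 9 each for miR-350, miR-361 and miR-425. For miR-374, whose pooled SD before PHx was 0.391 on the log2 scale, it did so for 0 of 9. That SD was 0.110 for miR-345-5p, 0.129 for miR-350, 0.0502 for miR-361 and 0.0871 for miR-425.

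The changes that chose the members came from a linear model (limma) over all 15 arrays, as means over the diets of the log2 difference from before PHx. At 24 h the difference was 0.67 (SE 0.0860) for miR-345-5p, 0.63 (SE 0.0973) for miR-350 and 0.83 (SE 0.223) for miR-374. It was 0.30 (SE 0.0772) for miR-361 and 0.35 (SE 0.106) for miR-425. In scaled signal these are 1.23-fold for miR-361 to 1.77-fold for miR-374. At 24 h 11.9% of the 134 tested miRNAs were called higher at an adjusted p under 0.05. All 5 members stand among them because their late rise was the ground of the choice. They are not all the late risers outside the miR-17 clusters. miR-21, miR-34a and miR-223, which are not members, were also called higher, with log2 differences of 1.11, 1.20 and 0.60. The member just inside the line was miR-425, with an adjusted p of 0.0475. Just outside it were miR-532-5p, with a log2 difference of 0.29 and an adjusted p of 0.0554, and miR-101b, with 0.32 and 0.0565.

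At 12 h the members' log2 differences ran from 0.10 to 0.59. miR-345-5p stood at 0.59 (SE 0.0860), close to its 24 h value, and was the 1 member past the line at that time, where 5.97% of tested miRNAs were called higher. The log2 differences of the others at 12 h were 0.15 for miR-350, 0.26 for miR-374, 0.15 for miR-361 and 0.10 for miR-425. The median of the members was 0.15 at 12 h and 0.63 at 24 h, beside medians of 0.06 and 0.02 over all 134 tested miRNAs. The sign of the 12 h median depended on the scaling between arrays: it was -0.06 with the 75th percentile taken over all probes, -0.02 with quantile normalization and -0.04 in the authors' deposited values. Under the first of these the median of all tested miRNAs at 12 h was -0.13. Under each of the 3 the 12 h differences of miR-350, miR-361 and miR-425 were below 0, from -0.02 to -0.11. Their 12 h direction was thus not settled. The differences of miR-345-5p and miR-374 were above 0 there. Under these 3 scalings miR-345-5p did not meet the line at 12 h either, nor did it with each pool as a block (0.53, limma adjusted p = 0.0794) or under either form of normexp, a model-based background correction (with a background for each spot or 1 per array). With these forms of normexp the 12 h difference of miR-374 was -0.22 and -0.10, so its direction was not settled either.

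**Figure D2:**
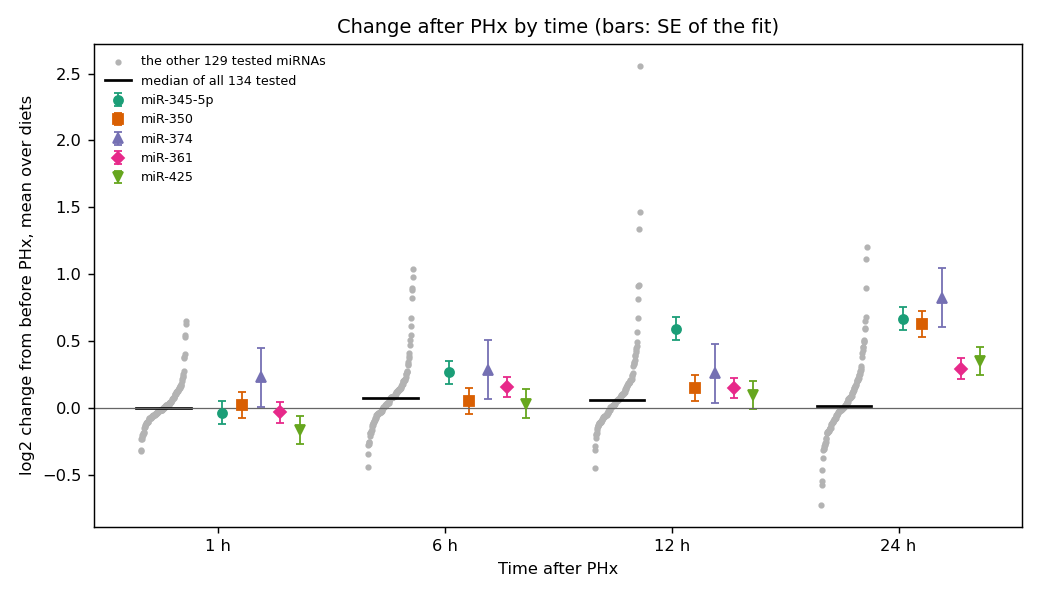
Log2 change from before PHx, averaged over the diets, at 1, 6, 12 and 24 h for the 5 members (coloured symbols, bars are the SE of the fit). Grey points are the other tested miRNAs, sorted, and the black line is the median of all 134. At 24 h the members lie between 0.30 and 0.83 and at 1 h between -0.16 and 0.23.

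The changes at 1 and 6 h were not used in the choice, although they share the arrays before PHx with the changes that were. At 1 h 0 of 5 members passed the test, as did 0% of all tested miRNAs, 4 of which had an unadjusted p under 0.05. The members' log2 differences at 1 h ran from -0.16 (miR-425) to 0.23 (miR-374), with a median of -0.03 beside a median of 0.0008 over all tested.

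At 6 h 0 of 5 members passed the test and 4.48% of tested miRNAs did, all of them higher. miR-345-5p came closest, with a log2 difference of 0.27 (SE 0.0860, 95% confidence interval 0.08 to 0.46, adjusted p = 0.0896), and both of its 6 h arrays were above all 7 arrays before PHx, as for 11.9% of tested miRNAs. The others at 6 h were 0.29 for miR-374, 0.16 for miR-361, 0.05 for miR-350 and 0.03 for miR-425, with adjusted p-values of 0.332 to 0.899. Those of miR-350 and miR-425 were below 0 at 6 h under the same 3 scalings. Whether one time differed from another was not tested for any member.

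Because 7 pools had their own baseline, the change could also be read within the same animals. The 3 late pools with a baseline were EtOH at 12 h and CHO at 12 and 24 h, and all 3 were above their own array before PHx for 5 of 5 members, as for 21.6% of tested miRNAs. These late values chose the members, so nothing is read from the count, and it held only under some scalings. It was 5 of 5 also with the software's total signal, beside 22.4% of tested miRNAs. In the authors' deposited values it was 2 of 5 (miR-345-5p and miR-374), beside 13.4%. The same 2 were counted when the percentile was taken over all probes, beside 8.21%. With quantile normalization it was 1 of 5 (miR-374), beside 8.96%, and without scaling 1 of 5 (miR-345-5p), beside 5.22%. For miR-345-5p the log2 change was 0.57 in the 12 h EtOH pool, 0.48 in the 12 h CHO pool and 0.64 in the 24 h CHO pool. For miR-350 these were 0.27, 0.21 and 0.49, and for miR-374 0.47, 0.57 and 0.41.
For miR-361 the corresponding log2 changes were 0.22, 0.19 and 0.29, and for miR-425 0.13, 0.03 and 0.47. For miR-425 the 24 h CHO pool thus stood apart from both 12 h pools. The earlier pools did not go one way: for miR-350 the log2 change was -0.29 in the 6 h CHO pool and 0.25 in the 1 h EtOH pool, and for miR-425 it was -0.31 in the 1 h CHO pool. The 1 h EtOH change of 0.75 for miR-374 starts from the array that was set at the floor.

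**Figure D3:**
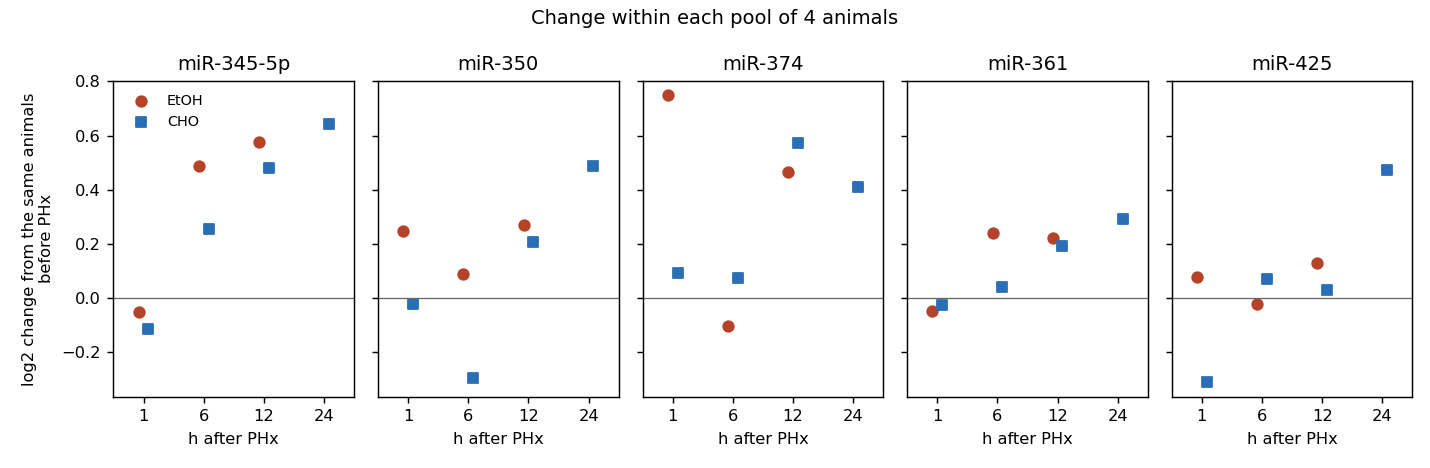
Log2 change of each pool of 4 animals from its own array before PHx, by hours after PHx, for the 5 members (red circles EtOH, blue squares CHO, no error bars because each point is 1 pair of arrays). With the scaling used here the points at 12 and 24 h lie between 0.03 and 0.64, as 21.6% of tested miRNAs were above 0 in all 3 of these pools, and other scalings put some of them below 0.

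Whether each member met the 24 h line varied with the processing. These are refits of the arrays that chose the members, so meeting the line again is no separate support for a rise. miR-345-5p met the 24 h line (higher, adjusted p under 0.05) under each of the scalings that follow. Quantile normalization and the authors' deposited values left 2 of 5 members past it, miR-345-5p and miR-350, and the software's total signal or no scaling left miR-345-5p alone. The percentile over all probes left 3 of 5, adding miR-374, and within the slide of the late pools 2 of 5 passed, miR-345-5p and miR-350. Under both normexp corrections 0 of 5 met the line, miR-345-5p included. Calls among all 134 tested miRNAs, in either direction at 24 h, moved too. They numbered 11 with the percentile over all probes, 6 without scaling and 9 within the slide of the late pools. Normexp with spot backgrounds gave 0 and with 1 background per array 3, and leaving out each array gave 11 to 21. miR-345-5p and miR-350 met the 24 h line in all 15 fits that left out 1 array, miR-361 in 14, miR-374 in 13 and miR-425 in 4. Without the 24 h CHO array the 24 h log2 difference of miR-425 was 0.12 and that of miR-361 0.18, and without the 24 h EtOH array miR-425 stood at 0.59. When each pool was fitted as its own block, the 24 h log2 differences were 0.71 for miR-345-5p, 0.61 for miR-350, 0.47 for miR-374, 0.33 for miR-361 and 0.54 for miR-425. In that blocked fit 0 of the 134 tested miRNAs passed at 24 h (limma, adjusted p of 0.144 to 0.637 for the members), and of the 24 h pools only that of CHO had a baseline in it.

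**Figure D4:**
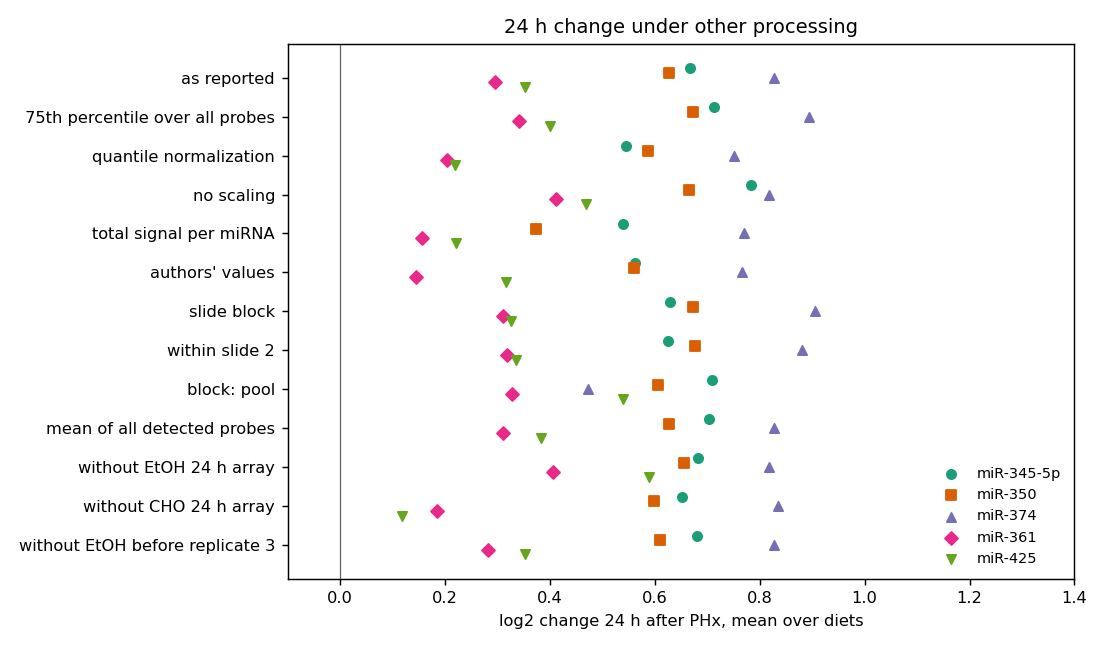
Log2 change 24 h after PHx (horizontal axis) of the 5 members as reported and under other ways of processing or choosing the arrays (vertical axis). All points lie above 0. miR-425 moves most with the 24 h arrays, to 0.12 without the CHO array and 0.59 without the EtOH array.

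Different probes of a miRNA gave the same direction at 24 h where they were measurable. They read the same RNA on the arrays that chose the members, so this is no separate support for the rise. The 24 h log2 difference of the second probe was 0.74 for miR-345-5p, 0.32 for miR-361 and 0.41 for miR-425. miR-350 and miR-374 each rest on 1 probe of 4, since their other probes were above background on at most 2 arrays. Each of these single probes has 5 spots per array.

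The diets were compared before PHx, where the choice of members did not use the difference. miR-350 was lower in ethanol-fed liver: its scaled signal was 13.1 ± 1.22 (SD, n = 3 pools) in EtOH and 19.0 ± 1.71 (SD, n = 4 pools) in CHO. The log2 difference was -0.54 (SE 0.0925, 95% confidence interval -0.74 to -0.34, limma adjusted p = 0.00484), and every EtOH pool was below every CHO pool. Only 1 of the 3 EtOH arrays was well above background for miR-350, so its EtOH level, and with it the size of the difference, is poorly measured. It was the 1 of 5 members that passed, beside 15.7% of tested miRNAs in either direction and 12.7% called lower in EtOH. Full separation with EtOH below was found for 21.6% of tested miRNAs, so the direction is common on these arrays.

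This miR-350 difference was called in all 15 fits without 1 array, from -0.61 to -0.48. Within the slide that held the 1 and 6 h pools it was -0.54, and within the slide of the 12 and 24 h pools -0.57 with an adjusted p of 0.0829. With the 75th percentile over all probes it was -0.48 with an adjusted p of 0.0900. Its sign turned under the normexp corrections, to 0.53 with spot backgrounds and 0.25 with 1 background per array. Those moved the median diet difference of all tested miRNAs from -0.08 to 0.36 and 0.19. The cause was not tested.

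The other members showed no called diet difference before PHx. Scaled signal was 32.9 ± 3.62 in EtOH against 36.7 ± 1.27 in CHO for miR-345-5p, and 13.1 ± 4.27 against 16.3 ± 3.72 for miR-374. It was 33.1 ± 1.01 against 32.9 ± 1.23 for miR-361 and 30.7 ± 2.38 against 28.3 ± 1.26 for miR-425 (SD, n = 3 EtOH and 4 CHO pools throughout). The log2 differences were -0.16 (95% confidence interval -0.34 to 0.02) for miR-345-5p, -0.30 (-0.77 to 0.16) for miR-374, 0.01 (-0.15 to 0.17) for miR-361 and 0.12 (-0.10 to 0.34) for miR-425. For miR-374 the interval spans differences as large as that of miR-350.

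After PHx the 4 EtOH pools were compared with the 4 CHO pools across times. 0 of 5 members passed, and 7.46% of tested miRNAs did. miR-350 read lower in EtOH at 4 of 4 times, as did 27.6% of tested miRNAs, with a log2 difference of -0.30 (SE 0.0856, 95% confidence interval -0.49 to -0.11, limma adjusted p = 0.0529). That value sits at the threshold, and whether it passed varied with the fit. The limma adjusted p was 0.0298 without the third EtOH array before PHx and 0.0495 without the second. It was 0.0419 with the floor halved, 0.0407 with the pair-fed set of pools as a block and 0.0363 with the mean of all detected probes. It reached 0.166 in another fit that left out 1 array. Across the other alternatives the log2 difference ran from -0.55 to -0.04, with adjusted p-values up to 0.9999. The other members differed between diets by -0.08 to 0.15 on the log2 scale after PHx, with adjusted p-values of 0.313 to 0.802.

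**Figure D5:**
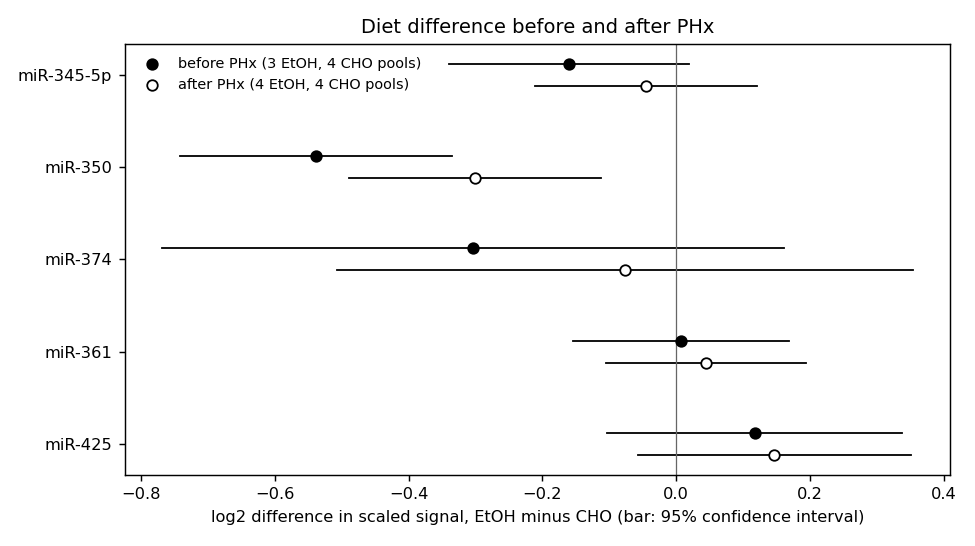
Log2 difference between diets, EtOH minus CHO (horizontal axis), before PHx (filled, 3 against 4 pools) and after PHx (open, 4 against 4 pools) for the 5 members. Bars are 95% confidence intervals of the fit. The miR-350 intervals lie below 0 in both states and those of the other members include 0.

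Whether PHx changed the diet difference was tested directly, and 0 of 5 members and 0% of tested miRNAs passed (limma, 9 of the 134 with an unadjusted p under 0.05). The difference after PHx minus that before was 0.24 for miR-350 (95% confidence interval -0.04 to 0.51, adjusted p = 0.638), 0.23 for miR-374, 0.11 for miR-345-5p, 0.04 for miR-361 and 0.03 for miR-425.

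The late changes of the diets were compared in the same way, on the assumption that a lone pool after PHx has the spread seen between pools before it. At 12 h 0 of 5 members differed between diets in their change, where 3.73% of tested miRNAs did. At 24 h 0 of 5 members and 0% of tested miRNAs did, 4 of the 134 with an unadjusted p under 0.05. Under normexp with spot backgrounds 5 of 5 members and 84.3% of tested miRNAs were called there, with a median over all tested of -2.22 on the log2 scale. The 24 h log2 changes were 0.62 in CHO and 0.71 in EtOH for miR-345-5p, 0.53 and 0.72 for miR-350, and 0.71 and 0.95 for miR-374. They were 0.36 and 0.23 for miR-361 and 0.51 and 0.19 for miR-425. The widest gap relative to its error was that of miR-425, whose change was lower in EtOH by -0.32 (95% confidence interval -0.68 to 0.03, unadjusted p = 0.0669, limma adjusted p = 0.902). For the others the 95% confidence intervals of the 24 h difference also held 0, and for miR-374 it ran from -1.11 to 1.59.

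The members' neighbours and partner strands were read where the array holds them. miR-345-3p, the other arm of the miR-345 hairpin, was detected on 14 of 15 arrays. Its scaled signal was 11.5, 11.3 and 19.7 in EtOH and 12.9, 12.1, 15.4 and 11.4 in CHO before PHx. After PHx it was 11.8, 12.8, 13.2 and 15.1 in EtOH and 15.5, 16.02, 22.9 and 17.1 in CHO at 1, 6, 12 and 24 h. Its groups overlapped: the 24 h log2 difference was 0.27 (SE 0.200, limma adjusted p = 0.465) and the 12 h one 0.39 (adjusted p = 0.398). The difference between the arms was not tested. The partner strands of the other members were not found by name on the array.

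Other hairpins lie close to 2 members in GRCr8. Mature miR-421 sequences start 144 and 180 nucleotides from the start of miR-374, on the same strand. Mature miR-191a sequences start 411 and 453 nucleotides from that of miR-425 on the same strand, and miR-191b starts 412 nucleotides from it on the opposite strand. On the array both miR-421 and miR-191 were not well above background on any of the 15 arrays, so they give no change to set beside their neighbours.

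Among all tested miRNAs the most similar course over the 15 arrays was sought for each member by Pearson correlation of log2 signal, as a description. The arrays share diet, time, slide and pools, and both members and many others were high at 24 h, so these values carry no p. miR-345-5p was most like miR-17 (r = 0.922), miR-21 (0.871), a miRNA widely studied in growing liver and tumours, and miR-223 (0.843), which is abundant in myeloid leukocytes. miR-350 was most like miR-106b (0.927), miR-20a (0.893) and miR-19b (0.871), and miR-374 most like miR-106b (0.795), miR-350 (0.733) and miR-19a (0.669).
miR-361 was most like miR-93 (0.818), miR-21 (0.777) and miR-425 (0.777). miR-425 was most like miR-361 (0.777), miR-34a (0.767), a known target of p53, and miR-25 (0.750). Among the members themselves r ran from 0.264 to 0.777 with a median of 0.573, beside a median of 0.0471 over all pairs of tested miRNAs. Members of the miR-17 clusters and their relatives filled 8 of the 15 places. The share of such miRNAs among all tested was not counted. These relatives were called higher at 24 h, except miR-25 (log2 difference 0.20, limma adjusted p = 0.364). Since the members were chosen for late rises too, such likeness follows in part from the choice. At 24 h miR-17, miR-20a, miR-19b, miR-19a and miR-106b differed from before PHx by 0.68, 0.65, 0.59, 0.90 and 0.51 on the log2 scale.

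Other values move over the same arrays. The array's 75th percentile of signal ran from 236.5 to 515.5, the lowest being the third EtOH pool before PHx, and 108 to 131 miRNAs were detected per array. On that array the median variation between replicate spots was 36.6%, against 6.75% to 8.62% on the other 14. There the spots of miR-350 varied by 68.5% and those of miR-374 by 96.0%, against medians of 12.8% and 14.3% on the other arrays. All 3 hepatocyte markers, miR-122, miR-192 and miR-194, were detected on all arrays, and 0 of them were called at any time. Of the 5 leukocyte markers 3 were detected, with a summed signal of 141.1 to 193.9 before PHx, 191.0 to 236.2 at 12 h and 175.0 to 185.5 at 24 h. Of these miR-223 was called higher at 6, 12 and 24 h, and the other detected leukocyte markers were not called. At those times the log2 differences were 0.03, -0.07 and -0.37 for miR-150 and -0.16, -0.10 and 0.08 for miR-142-3p. The markers miR-142-5p and miR-155 were not detected or not on the array, and no stellate, endothelial, erythroid or epithelial marker was called. The part of leukocyte content in the members' rise was not tested. In whole liver fewer cells of a type and less RNA per cell cannot be told apart.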

How the data were processed

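miRNA in rat liver was measured on 15 one-colour arrays. The authors deposited scanner files whose spot intensity is linear and already corrected for local background by Agilent Feature Extraction 10.5.1.1, per the file headers (version 10.7.3.1 in the submitters' processing notes). A value table deposited by the authors holds log2 values, 1 per miRNA, of unstated method, scale and centring. Its column medians run from 0.106 to 1.10, and it served as an alternative. No genome build or aligner applies to array values.

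From the scanner files, control spots were dropped, as were 2503 spots (2.38%) that the software marked as outliers within the spot or the probe. The mean processed signal per probe was scaled to the array's 75th percentile, taken over 185 probes detected throughout (a share of at least 0.5 of the spots well above background), floored at 9.61 and log2-transformed. The brightest probe stood for its miRNA, and 134 miRNAs detected on at least 3 arrays were tested. limma 3.58.1 in R 4.3.3 (lmFit, eBayes) was fitted to the 15 arrays with a diet term before surgery, another after it and 1 term per time (8 residual degrees of freedom). Each diet's own changes came from a fit of 10 cells of diet and time. Benjamini-Hochberg adjustment ran over all 134 miRNAs, and an adjusted p under 0.05 is a call. The number of arrays limits the precision. The code was tested on simulated data.

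The members, the marker lists and the rule for named miRNAs (the members, their other arms, encoded neighbours and seed relatives, the 3 most correlated miRNAs for each, and the miRNAs beside the selection line) were chosen with earlier results of these data known. Same-pool pairing comes from the labels' animal identifiers. Residuals of the arrays before and after PHx of 1 pool correlated from -0.100 to 0.242. Per those identifiers the 1 h and 6 h pools of each diet share 1 animal. Slide 1 held the 1 h and 6 h pools and slide 2 the 12 h and 24 h pools. Alternatives changed the scaling, background correction, floor, filter, probe summary, slide and pool blocks and left out each array in turn. The normexp correction used the median signal and median background, as the mean signal was not among the columns used.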

Additional observations from a re-analysis of the deposited data

Results flagged for a closer look

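The CHO pools before PHx are the 1 group of 4 samples in which a single value could be checked for standing apart, and it was checked for the 5 members. For miR-345-5p the highest of the 4 pools, replicate 3, stood apart at 5.27 on the log2 scale, while the other 3 pools all read 5.17. Chance alone marks about 1 in 20 such groups. That pool is the baseline of the 12 h CHO pool, whose own change was 0.48.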

How the results depend on the processing

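Of 1065 member values recomputed under an alternative, 97 turned sign, 17 of them at 12 h and 0 at 24 h. Apart from miR-350 for diet before PHx under the normexp corrections, no turned value had been called as reported. Both normexp corrections and the mean of all detected probes were added after seeing the data, as were the counts of late pools above their baseline by scaling and leaving out together the third EtOH array before PHx and the 12 h CHO array. The normexp corrections add an offset of 50 to the signal. Arrays after PHx have 1 pool per diet and time, which limits each late value, and signal near background limits miR-350 and miR-374.

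Members called for diet before PHx (1 as reported) numbered 0 when the 75th percentile was over all probes, within slide 2 and with both normexp corrections, and 3 without scaling. For diet after PHx (0 as reported) they numbered 1 with the floor lowered to 4.81, with the pair-fed set of pools as a replicate block and with the mean of probes, and 0 to 1 when each array was left out. For the diet difference in the 24 h change they numbered 5 under normexp with spot backgrounds, where 84.3% of all tested miRNAs were called. The members' median at 12 h was -0.058 when the percentile was over all probes, -0.025 under quantile normalization, -0.039 in the authors' values, -0.18 and -0.074 under the 2 normexp corrections and 0.34 without scaling; it ran from 0.14 to 0.19 without each array. Single 12 h values that turned ran from -0.25 (miR-350, normexp) to -0.025 (miR-361, quantile normalization). Their median at 24 h was 0.37 with the software's total signal and 0.92 and 0.059 under the normexp corrections, where the median of all tested was 0.73 and -0.044 (0.019 as reported), and 0.60 to 0.65 without each array.

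At 1 h miR-350 turned to -0.0026 with the percentile over all probes, -0.090 in the authors' values, -0.11 with total signal, -0.012 with the slide as a block and within slide 1. miR-361 turned to 0.011 in the authors' values, 0.0017 with the mean of probes, 0.18 without scaling and 0.023 with total signal. Without scaling miR-345-5p was 0.18 and miR-425 0.052. At 6 h miR-350 turned to -0.081 with the percentile over all probes, -0.070 in the authors' values, -0.058 without scaling and -0.079 with quantile normalization, and miR-425 to -0.10, -0.090, -0.00074 and -0.088 in the same order. With the pool as a replicate block the 6 h values of miR-350 and miR-374 were -0.10 and -0.015.

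For diet before PHx miR-361 turned to -0.031 in the authors' values, -0.049 with the mean of probes, -0.52 without scaling, -0.098 with total signal and -0.048 within slide 2, and miR-425 to -0.41 without scaling. For diet after PHx miR-345-5p turned to 0.21 with the percentile over all probes and with quantile normalization and 0.048 in the authors' values. There miR-374 turned to 0.17 and 0.076 under the first pair and 0.029 within slide 2, where miR-361 was -0.037 and miR-425 -0.018. The miR-425 difference after minus before PHx was -0.088 within slide 2.

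Under normexp with spot backgrounds miR-350 was -0.30 and miR-374 -0.22 at 1 h, and miR-350, miR-374 and miR-425 were -0.060, -0.0083 and -0.038 at 6 h. Diet before PHx gave 0.44, 0.53 and 0.60 for miR-345-5p, miR-350 and miR-374, diet after PHx -0.43 and -0.39 for miR-361 and miR-425. The difference after minus before was -0.83, -1.07, -1.09, -0.95 and -0.94 for miR-345-5p, miR-350, miR-374, miR-361 and miR-425. With 1 background per array the corresponding values were -0.16 and -0.11 at 1 h, -0.0024 for miR-350 at 6 h, 0.22, 0.25 and 0.30 for diet before PHx, 1.4e-05 for miR-374 after PHx, and -0.22, -0.29, -0.30, -0.25 and -0.27 for the difference.

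Leaving out each array turned some values near 0: miR-345-5p (-0.10 to 0.035), and miR-350 (-0.011 to 0.058) at 1 h; miR-350 (-0.034 to 0.14) and miR-425 (-0.025 to 0.094) at 6 h; miR-361 for diet before PHx (-0.013 to 0.033) and after it (-0.015 to 0.10); and, for the difference between these, miR-361 (-0.023 to 0.093) and miR-425 (-0.050 to 0.15). The cause of the turned values was not tested.

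Counts over all tested miRNAs moved too. For diet before PHx they were 21 as reported, 2 with the percentile over all probes, 9 with quantile normalization, 76 without scaling, 13 without the filter, 37 within slide 1, 1 within slide 2, 0 and 8 under normexp and 34 without the third EtOH array. For diet after PHx they were 10 as reported, from 0 within slide 2 to 27 with total signal, 33 without that EtOH array and 1 to 2 without a 1 h or 6 h array or the first or second CHO array before PHx. At 6 h they were 6 as reported, 0 without the EtOH and 1 without the CHO array of that time, 14 within slide 1, 2 in the authors' values and 0 without scaling, with the percentile over all probes and under both normexp corrections. At 12 h they were 8 as reported, 3 with the pool as a replicate block and with the percentile over all probes, 13 with total signal, and 0 and 1 under normexp. At 24 h they were 18 as reported, 0 with the pool as a replicate block, 6 without scaling, 9 within slide 2, 0 and 3 under normexp, and 11 without the 24 h EtOH array, without the filter and with the percentile over all probes. The diet difference in the 12 or 24 h change could not be fitted with the pool block or without an array of that time.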
